A study of Arabidopsis thaliana with 6 samples.

Results

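The 41 loci described here encode the plastid enzymes that make fatty acids and the lipids of the photosynthetic membranes in Arabidopsis thaliana, with a pair of endoplasmic reticulum desaturases beside them. They were chosen by locus code from a list of pathway genes, and all 41 were found among the 28259 loci of the tables. They fall into pyruvate dehydrogenase (4 loci), acetyl-CoA carboxylase (4), fatty acid synthase (8), acyl carrier proteins (5), thioesterases (3), desaturases (9), an acyl-CoA synthetase with an envelope protein (2) and plastid glycerolipid enzymes (6). Transcripts were measured by RNA-seq in whole wild-type seedlings of the Col-0 ecotype, 10 days old, that had stood in water overnight in the light. One group of 3 libraries came from seedlings given 3-OH-C10:0, a medium-chain 3-hydroxy fatty acid of bacteria that Arabidopsis senses as an immune elicitor, and the other 3 libraries from seedlings given the solvent dimethyl sulfoxide (DMSO), each collected after 8 h. The labels give the dose as 5 microM in one field and 5 mM in another. Nothing in the labels says whether the replicates were grown separately, so p-values measure the spread between these libraries only.

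In plant cells fatty acids are built in the plastid. Pyruvate dehydrogenase supplies acetyl-CoA, acetyl-CoA carboxylase turns it into malonyl-CoA, and the fatty acid synthase extends an acyl chain that is held on acyl carrier protein. Thioesterases release finished chains for use outside the plastid, while acyltransferases and galactolipid and sulfolipid synthases build the lipids of the thylakoid membrane, in which desaturases add double bonds.

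Estimated counts summed to between 18064723 and 27131500 per library in the 3-OH-C10:0 group and to between 19390988 and 21000782 in the DMSO group. In a single library 3 counts, taken as the detection floor, correspond to 0.111 to 0.166 counts per 1e6 counts (CPM), a limit that covers counting error only. Levels below are FPKM (fragments per kilobase of transcript, scaled to library depth), which can be compared between genes. Log2 fold changes are 3-OH-C10:0 over DMSO with their standard error (SE), from edgeR's quasi-likelihood test, and adjusted p-values are Benjamini-Hochberg values over 19768 tested genes. A gene is said to have risen or fallen where its adjusted p was under 0.05. The treatment moved a large share of all genes: 35.8% of the tested genes fell and 35.6% rose, 71.4% in all.

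Of the 41 loci, 40 passed the filter on low counts, and 35 of these fell, 2 rose and 3 did not pass the test. Loci with either call thus made up 92.5% of those tested, against 71.4% of all tested genes, and fallen loci 87.5%, against 35.8%. The median log2 fold change was -0.82 over the 40 loci and -0.04 over all tested genes. At least 2-fold falls were seen in 14 loci (35% of the 40, against 14.7% of all tested genes), and 1 rose at least 2-fold (2.5%, against 15.7%). For 35 loci every 3-OH-C10:0 library had a lower CPM than every DMSO library, a separation found in 38.2% of all tested genes. The opposite separation held for 3 loci (7.5%, against 37.7%). The loci were well expressed, with a median level of 33.6 FPKM in 3-OH-C10:0 seedlings and 56.2 FPKM in DMSO seedlings, against 9.40 and 8.99 FPKM over all tested genes.

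**Figure D1:**
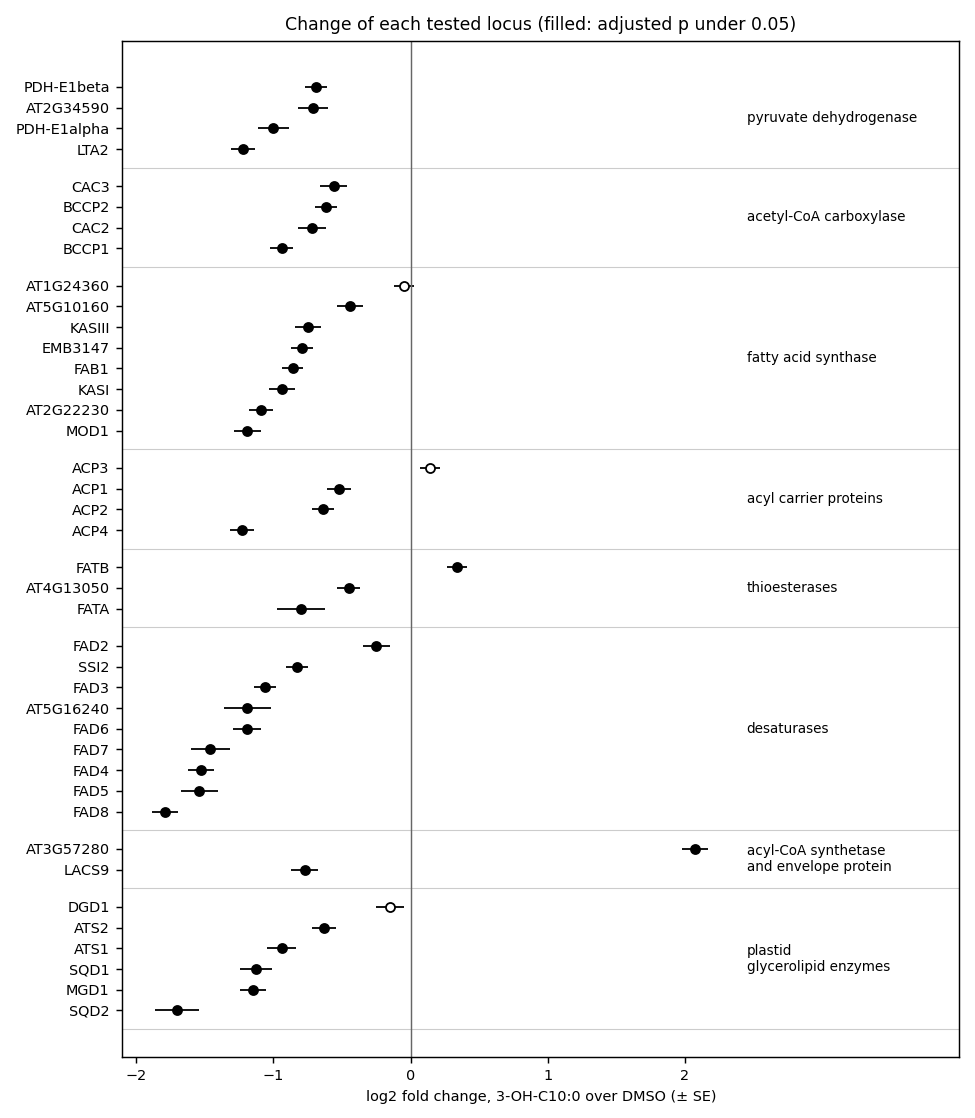
Log2 fold change (3-OH-C10:0 over DMSO, bars ± SE, n = 3 libraries per group) of the 40 tested loci, grouped by role, with filled points where the adjusted p was under 0.05. Most points lie left of 0, FAD8 lies farthest left at -1.79, and AT3G57280 lies farthest right at 2.07, with FATB (0.34) and ACP3 (0.14, not passed) the other points right of 0.

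Markers of other features of the seedlings moved as well. Of 6 green tissue markers 5 fell and 1 did not pass, and their summed level was 9808 to 13577 CPM in 3-OH-C10:0 seedlings, against 35506 to 38378 CPM in DMSO seedlings. All 6 dividing cell markers fell (49.7 to 55.7 CPM summed, against 85.1 to 90.7 CPM). Of 7 root markers 4 fell and 1 rose (672 to 953 CPM, against 1325 to 1421 CPM). Most of the root sum was PYK10, at a mean of 710 CPM against 1303 CPM, while SCR rose and EXPA7 and SHR did not pass. Of 5 guard cell markers 2 fell (24.5 to 26.5 CPM, against 33.1 to 36.1 CPM), and of 5 vascular markers 2 rose and 2 fell (473 to 526 CPM, against 391 to 417 CPM). Over all tested genes 35.8% fell and 35.6% rose, and the counts for guard cell and vascular markers are near these shares. No marker was at 0 in all libraries. The part of these tissues in the results below was not tested, and in whole seedlings fewer cells of a type and less RNA per cell cannot be told apart.

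The plastid pyruvate dehydrogenase complex, which makes acetyl-CoA from pyruvate, fell in all 4 of its listed subunits, by 0.69 to 1.22 on the log2 scale. LTA2, the dihydrolipoamide acetyltransferase subunit, was at 21.9, 20.6 and 24.4 FPKM in 3-OH-C10:0 seedlings, against 57.2, 52.8 and 55.3 FPKM in DMSO seedlings. Its log2 fold change was -1.22 ± 0.0872 (adjusted p = 4.7e-07), and the groups were far apart compared with the spread within each. PDH-E1alpha was on average the most abundant subunit in DMSO seedlings, but below AT2G34590 in DMSO replicate 2 and in each 3-OH-C10:0 library. It stood at 52.0, 48.2 and 65.2 FPKM in 3-OH-C10:0 seedlings, against 119, 112 and 120 FPKM in DMSO seedlings (-1 ± 0.115, adjusted p = 1.8e-05). Of its 3-OH-C10:0 libraries replicate 3 was the highest but still far below the DMSO libraries. PDH-E1beta and AT2G34590, which RefSeq also annotates with pyruvate dehydrogenase activity in the chloroplast, fell by 0.69 and 0.71. Summed over the 4 subunits, the level was 180 ± 20.9 FPKM in 3-OH-C10:0 seedlings and 349 ± 5.17 FPKM in DMSO seedlings (SD, n = 3 each).

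Acetyl-CoA carboxylase makes malonyl-CoA, the donor of every chain extension step, and its 4 listed nuclear genes fell together by 0.56 to 0.94. CAC2, the biotin carboxylase and the most abundant of them, was at 73.5, 74.6 and 89.0 FPKM in 3-OH-C10:0 seedlings, against 136, 141 and 137 FPKM in DMSO seedlings (-0.72 ± 0.101, adjusted p = 7.9e-05). The groups did not overlap, and again the third 3-OH-C10:0 library was the highest of its group. BCCP1, a biotin carboxyl carrier, had the largest change of the 4 (-0.94 ± 0.0821), and its isoform BCCP2 and the carboxyltransferase subunit CAC3 fell by 0.62 and 0.56. Exons of BCCP2 overlap those of opposite-strand genes over 19.8% of their length, and whether counting used strand is not given here, so its level may hold reads of its neighbours. The summed level of the 4 genes was 185 ± 15.3 FPKM in 3-OH-C10:0 seedlings and 320.3 ± 2.08 FPKM in DMSO seedlings (SD, n = 3 each).

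Among the 8 genes of the fatty acid synthase cycle, 7 fell and 1 did not pass. MOD1, the enoyl-ACP reductase that closes each cycle, was at 43.6, 38.1 and 47.0 FPKM in 3-OH-C10:0 seedlings, against 104, 104 and 103 FPKM in DMSO seedlings. Its log2 fold change of -1.19 ± 0.0961 (adjusted p = 1.1e-06) was the largest of the cycle. AT2G22230, annotated as a 3-hydroxyacyl-ACP dehydratase, was at 13.7, 12.8 and 13.9 FPKM in 3-OH-C10:0 seedlings, against 31.2, 30.9 and 29.2 FPKM in DMSO seedlings (-1.09 ± 0.0903, adjusted p = 1.4e-06). Both groups of this gene were tight and well apart. The condensing enzymes KASIII, which starts the chain, KASI, which extends it, and FAB1, which adds the last extension, fell by 0.75, 0.94 and 0.86. EMB3147, the malonyltransferase, fell by 0.79, and the second dehydratase, AT5G10160, by 0.44.

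The exception in the cycle was AT1G24360, annotated as the 3-oxoacyl-ACP reductase. It was at 57.8, 57.6 and 53.9 FPKM in 3-OH-C10:0 seedlings, against 65.1, 59.2 and 61.6 FPKM in DMSO seedlings, with a log2 fold change of -0.05 ± 0.0745 (adjusted p = 0.55). Its groups did not overlap in FPKM but overlapped in CPM scaled by TMM, edgeR's trimmed mean method. In 3-OH-C10:0 seedlings it averaged 56.4 ± 2.19 FPKM, above MOD1 at 42.9 ± 4.48 FPKM, whereas in DMSO seedlings it averaged 62.0 ± 2.94 FPKM, below MOD1 at 104 ± 0.667 FPKM (SD, n = 3 each). The order of the levels of the reductases was thus inverted between the groups.

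**Figure D2:**
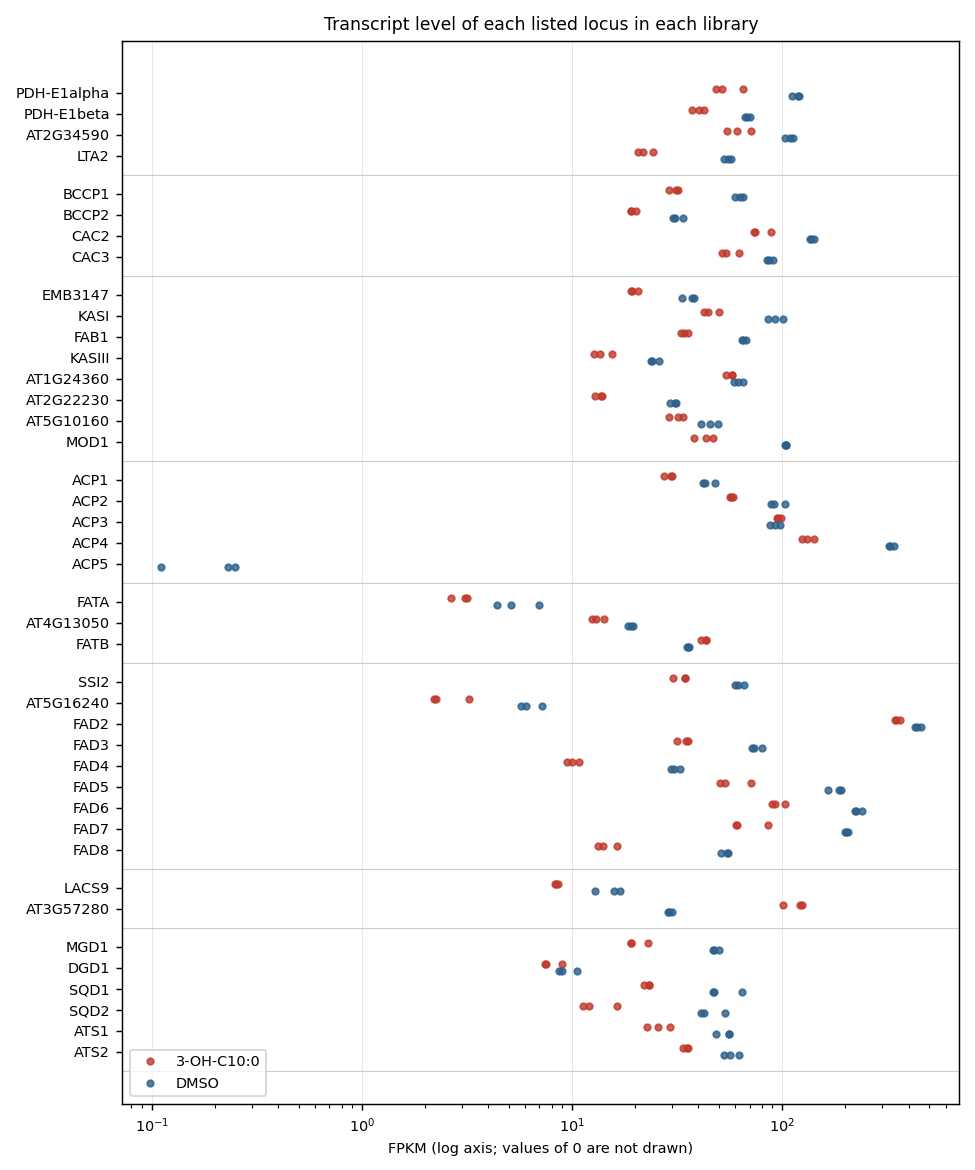
FPKM of each of the 41 loci in each library on a log axis, with the 3 libraries of 3-OH-C10:0 seedlings (red, upper row of each gene) above the 3 of DMSO seedlings (blue, lower row). ACP5 has no red point because it was at 0 in those libraries. FAD2 is the most abundant locus in both groups, and AT3G57280 is the clearest case with red to the right of blue.

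The acyl carrier proteins hold the growing chain on a phosphopantetheine arm that is attached to a serine. To show how alike the 5 genes are, the coding sequence around that serine is given for each, from RefSeq on TAIR10.1, 60 bases long and 5′ to 3′ on the coding strand. Capitals mark bases that differ from ACP3, and the serine codon takes bases 49 to 51.
ACP1, chr3:1392066-1392125, minus strand: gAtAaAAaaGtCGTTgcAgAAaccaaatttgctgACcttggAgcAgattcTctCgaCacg
ACP2, chr1:20390262-20390321, plus strand: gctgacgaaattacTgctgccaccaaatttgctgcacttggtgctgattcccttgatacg
ACP3, chr1:20402035-20402094, minus strand: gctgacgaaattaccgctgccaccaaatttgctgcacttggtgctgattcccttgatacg
ACP4, chr4:12870630-12870689, plus strand: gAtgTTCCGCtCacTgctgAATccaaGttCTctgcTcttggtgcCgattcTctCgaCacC
ACP5, chr5:9571724-9571783, plus strand: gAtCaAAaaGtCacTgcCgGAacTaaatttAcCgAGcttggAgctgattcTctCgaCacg
ACP2 differs from ACP3 by 1 base in this stretch, ACP1 and ACP5 by 19 each and ACP4 by 21. Over the whole coding sequence ACP2 and ACP3 are 94.16% identical, with identical runs of up to 63 bases, and ACP3 and ACP4 are 60.66% identical. Reads may therefore have been split between ACP2 and ACP3 with some error, whereas ACP4 stands apart from both.

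ACP4, the most abundant of the 5, was at 142, 132 and 125 FPKM in 3-OH-C10:0 seedlings, against 342, 327 and 323 FPKM in DMSO seedlings. Its log2 fold change was -1.23 ± 0.0854 (adjusted p = 3.7e-07), and no 3-OH-C10:0 library came near a DMSO library. ACP3 was at 99.2, 95.5 and 94.8 FPKM in 3-OH-C10:0 seedlings, against 97.4, 88.0 and 92.6 FPKM in DMSO seedlings (0.14 ± 0.0740, adjusted p = 0.11). Its groups overlapped in FPKM and lay apart in TMM-scaled CPM. ACP1 and ACP2 fell by 0.52 and 0.64. ACP5 did not pass the filter: it was listed at 0 in all 3-OH-C10:0 libraries and at 0.25, 0.11 and 0.23 FPKM in DMSO libraries, with at most 2 counts in a library.

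The makeup of this group of transcripts differed accordingly. ACP3 took 30.6% ± 0.350 of the summed FPKM of the 5 genes in 3-OH-C10:0 seedlings and 16.5% ± 0.346 in DMSO seedlings (SD, n = 3 each). ACP4 took 42.1% ± 1.22 in 3-OH-C10:0 seedlings and 58.8% ± 1.04 in DMSO seedlings. Both shares separated the groups fully, but an exact two-sided permutation test of 3 libraries against 3 cannot give less than p = 0.1, which both reached (0.125 after Benjamini-Hochberg adjustment over the 5 genes). The share of ACP1 also separated the groups (9.18% against 7.85%), and that of ACP2 did not (18.2% against 16.8%, exact permutation p = 0.2). Since ACP2 and ACP3 are nearly identical, their sum is the safer measure: it took 48.8% ± 1.05 in 3-OH-C10:0 seedlings and 33.3% ± 0.816 in DMSO seedlings. In level, that sum was 154 ± 2.14 FPKM in 3-OH-C10:0 seedlings and 188 ± 12.2 FPKM in DMSO seedlings, a log2 ratio of -0.28, which is smaller than the change of ACP4.

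**Figure D3:**
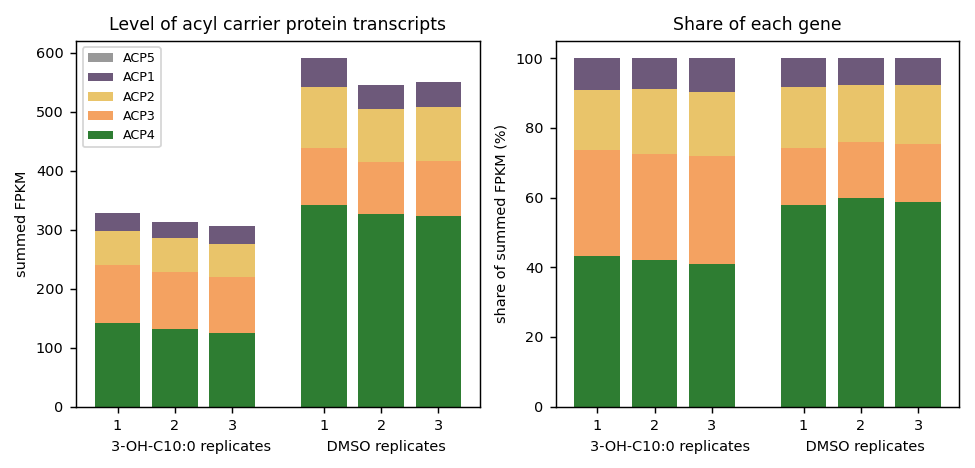
Summed FPKM (left) and share of the summed FPKM in percent (right) of the 5 acyl carrier protein genes in each library, with the 3 libraries of 3-OH-C10:0 seedlings left of the 3 of DMSO seedlings. The ACP4 part is smaller in 3-OH-C10:0 seedlings in level and in share, and the ACP3 part keeps a similar level. ACP5 is too low to be seen.

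The thioesterases end chain growth by freeing the acyl chain from its carrier protein, and here the 3 genes went both ways. FATB, which prefers saturated chains and was the most abundant, was at 41.2, 43.2 and 43.3 FPKM in 3-OH-C10:0 seedlings, against 35.5, 35.2 and 36 FPKM in DMSO seedlings. It rose by a small amount (0.34 ± 0.0716, adjusted p = 0.0014), with all 3 libraries of 3-OH-C10:0 seedlings above those of DMSO seedlings. FATA, which prefers oleoyl chains, fell by 0.80 ± 0.174, at low levels of 2.96 ± 0.265 FPKM in 3-OH-C10:0 seedlings and 5.47 ± 1.32 FPKM in DMSO seedlings (SD, n = 3 each). AT4G13050, annotated as an acyl-ACP thioesterase, fell by 0.45. The sum of the 3 genes was 58.7 ± 1.62 FPKM in 3-OH-C10:0 seedlings and 60.1 ± 1.21 FPKM in DMSO seedlings, and these overlapped.

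The desaturases, which place double bonds into acyl chains, fell in all 9 genes, with a median log2 fold change of -1.19, and 7 of them fell at least 2-fold. FAD8, a plastid omega-3 desaturase on chromosome 5 (TAIR10.1, 1664040 to 1666531, plus strand), had the largest fall of all listed loci. It was at 14.1, 13.4 and 16.4 FPKM in 3-OH-C10:0 seedlings, against 54.5, 51.1 and 55.2 FPKM in DMSO seedlings (-1.79 ± 0.0943, adjusted p = 4.7e-08). Its more abundant partner FAD7 was at 60.6, 61.0 and 86.0 FPKM in 3-OH-C10:0 seedlings, against 201, 206 and 199 FPKM in DMSO seedlings (-1.46 ± 0.140, adjusted p = 5.5e-06). Among 3-OH-C10:0 libraries replicate 3 lay well above the others for FAD7, while the DMSO libraries were close together. Their coding sequences are 84.53% identical, with runs of up to 87 identical bases, so some reads may have been assigned to the wrong one of the pair.

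The falls of the other plastid desaturases ranged from 0.83 to 1.54 on the log2 scale. FAD5, which acts on palmitate in monogalactolipid, was at 50.6, 53.6 and 71.1 FPKM in 3-OH-C10:0 seedlings, against 165, 191 and 186 FPKM in DMSO seedlings (-1.54 ± 0.137, adjusted p = 3.5e-06). FAD4, which acts on phosphatidylglycerol, was at 9.47, 10.0 and 10.8 FPKM in 3-OH-C10:0 seedlings, against 30.6, 32.5 and 29.5 FPKM in DMSO seedlings (-1.53 ± 0.0937, adjusted p = 1.5e-07). Both were clear of overlap, although FAD4 shares 16.2% of its exon length with an opposite-strand gene. FAD6, the plastid omega-6 desaturase, was at 92.4, 89.7 and 104 FPKM in 3-OH-C10:0 seedlings, against 223, 241 and 224 FPKM in DMSO seedlings (-1.19 ± 0.101, adjusted p = 1.7e-06). SSI2, the main stearoyl-ACP desaturase, fell by 0.83 ± 0.0803. AT5G16240, annotated as a stearoyl-ACP desaturase, was low throughout, at 2.26, 2.21 and 3.24 FPKM in 3-OH-C10:0 seedlings, against 7.18, 6.05 and 5.73 FPKM in DMSO seedlings (-1.19 ± 0.172, adjusted p = 9.8e-05).

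FAD2 and FAD3 do the corresponding omega-6 and omega-3 steps in the endoplasmic reticulum. FAD3 was at 31.6, 35.0 and 35.7 FPKM in 3-OH-C10:0 seedlings, against 72.2, 73.8 and 79.9 FPKM in DMSO seedlings (-1.06 ± 0.0823, adjusted p = 8.7e-07). FAD2, the most abundant of the 41 loci, was at 363, 343 and 349 FPKM in 3-OH-C10:0 seedlings, against 438, 460 and 429 FPKM in DMSO seedlings. These groups did not overlap, but the change was small (-0.25 ± 0.1, adjusted p = 0.045). The call was lost when any one library other than 3-OH-C10:0 replicate 3 was left out (adjusted p = 0.053 to 0.14). It was also lost with DESeq2 size factors (0.065), without a filter on low counts (0.063) and with the replicate number as a block (0.081). Summed, the 5 plastid desaturases FAD4 to FAD8 were at 248 ± 34.9 FPKM in 3-OH-C10:0 seedlings and 697 ± 24.2 FPKM in DMSO seedlings, a log2 ratio of -1.49. FAD2 and FAD3 together were at 386 ± 8.21 FPKM in 3-OH-C10:0 seedlings and 518 ± 14.1 FPKM in DMSO seedlings, a log2 ratio of -0.42. The sum of FAD2 and FAD3 was thus above that of the plastid set in 3-OH-C10:0 seedlings and below it in DMSO seedlings.

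The locus with the largest rise was AT3G57280, on chromosome 3 (TAIR10.1, 21193680 to 21195790, plus strand, 6 exon blocks with no overlapping gene). RefSeq annotates it as a transmembrane 14C protein of the chloroplast inner membrane, a protein family that includes plastid fatty acid exporters. It was at 124, 122 and 101 FPKM in 3-OH-C10:0 seedlings, against 29.0, 29.8 and 28.7 FPKM in DMSO seedlings. The change was 4.2-fold (2.07 ± 0.0955 on the log2 scale, adjusted p = 1.7e-08), and the third 3-OH-C10:0 library was the lowest of its group. LACS9, the acyl-CoA synthetase of the outer plastid envelope, went the other way, with 8.43 ± 0.135 FPKM in 3-OH-C10:0 seedlings and 15.2 ± 2.11 FPKM in DMSO seedlings (-0.77 ± 0.0984, adjusted p = 4.1e-05). In 3-OH-C10:0 seedlings AT3G57280 ranked above every listed locus except FAD2 and ACP4.

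Of the 6 enzymes that build plastid glycerolipids, 5 fell and 1 did not pass. SQD2, which completes sulfolipid, was at 11.2, 12 and 16.4 FPKM in 3-OH-C10:0 seedlings, against 53.7, 41.3 and 42.5 FPKM in DMSO seedlings (-1.70 ± 0.161, adjusted p = 1.8e-05). SQD1, which makes its sugar donor, was at 22.0, 23.2 and 23.3 FPKM in 3-OH-C10:0 seedlings, against 64.5, 47.0 and 47.4 FPKM in DMSO seedlings (-1.13 ± 0.117, adjusted p = 8.7e-06). For both genes the first DMSO library was the highest, and the groups did not overlap. MGD1, the main synthase of monogalactolipid, was at 19.0, 19.1 and 23.1 FPKM in 3-OH-C10:0 seedlings, against 47.0, 47.7 and 49.9 FPKM in DMSO seedlings (-1.15 ± 0.0950, adjusted p = 1.4e-06). DGD1, which adds the second galactose to that lipid, did not pass: it was at 7.41, 9 and 7.54 FPKM in 3-OH-C10:0 seedlings, against 10.5, 8.97 and 8.71 FPKM in DMSO seedlings (-0.15 ± 0.103, adjusted p = 0.2). Its groups overlapped. Among the acyltransferases that start the pathway, ATS2 was at 33.8, 35.4 and 35.8 FPKM in 3-OH-C10:0 seedlings, against 53.0, 62.7 and 56.4 FPKM in DMSO seedlings (-0.63 ± 0.0892, adjusted p = 8.6e-05), and ATS1 fell by 0.94 ± 0.106.

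Summed levels put the roles side by side. The ratio of 3-OH-C10:0 to DMSO seedlings was lowest for the plastid glycerolipid enzymes (0.469), followed by pyruvate dehydrogenase (0.515), the desaturases (0.521), fatty acid synthase (0.558), the acyl carrier proteins (0.561) and acetyl-CoA carboxylase (0.579). The ratio of the thioesterases was 0.977, and that of LACS9 with AT3G57280 was 2.80. The groups did not overlap for any of the 8 roles but the thioesterases. A sum leans on its most abundant genes. The desaturase sums were 669 FPKM in 3-OH-C10:0 seedlings and 1283 FPKM in DMSO seedlings, of which FAD2 made 352 and 443 FPKM. By median log2 fold change the desaturases were lowest (-1.19), followed by the plastid glycerolipid enzymes (-1.03) and pyruvate dehydrogenase (-0.86).

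Fallen loci tended to stand higher in 1 library of the 3-OH-C10:0 group. The third 3-OH-C10:0 library was the highest of its group for 26 of the 35 fallen loci, the first for 7 and the second for 2. The same count was not made over all fallen genes, so this is not shown to be particular to the listed loci. Across expressed genes, log2 counts of the third library correlated at 0.9852 and 0.9855 with the first and second, which correlated at 0.9891 with each other. In 15 fallen loci the 3-OH-C10:0 libraries spanned more than 1.2-fold in CPM, and the third 3-OH-C10:0 library was the highest in all 15. Without that library 35 loci still fell, with a median log2 fold change of -0.85 over the 40 tested.

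Isoforms of one step, and enzymes of consecutive steps, did not all change by the same factor. The log2 ratio of 10 pairs was compared within libraries, where scaling between libraries has no effect. DGD1 relative to MGD1 had the largest difference: the ratio was 0.390, 0.470 and 0.327 in 3-OH-C10:0 seedlings, against 0.224, 0.188 and 0.175 in DMSO seedlings, a log2 difference of 1.01. FAD3 relative to FAD2 was at 0.0871, 0.102 and 0.102 in 3-OH-C10:0 seedlings, against 0.165, 0.160 and 0.186 in DMSO seedlings, a log2 difference of -0.81. AT5G10160 relative to AT2G22230, the dehydratase pair, differed by 0.65, and SQD2 relative to SQD1 by -0.60. Smaller differences without overlap were found for ATS2 over ATS1 (0.34), BCCP2 over BCCP1 (0.33) and FAD8 over FAD7 (-0.32). Each of these 7 pairs reached the smallest exact permutation p of 0.1, which was 0.143 after Benjamini-Hochberg adjustment over the 10 pairs. The groups overlapped for AT4G13050 over FATA (0.33, exact permutation p = 0.2), AT5G16240 over SSI2 (-0.39, exact permutation p = 0.2) and AT2G34590 over PDH-E1beta (-0.03, exact permutation p = 0.8).

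**Figure D4:**
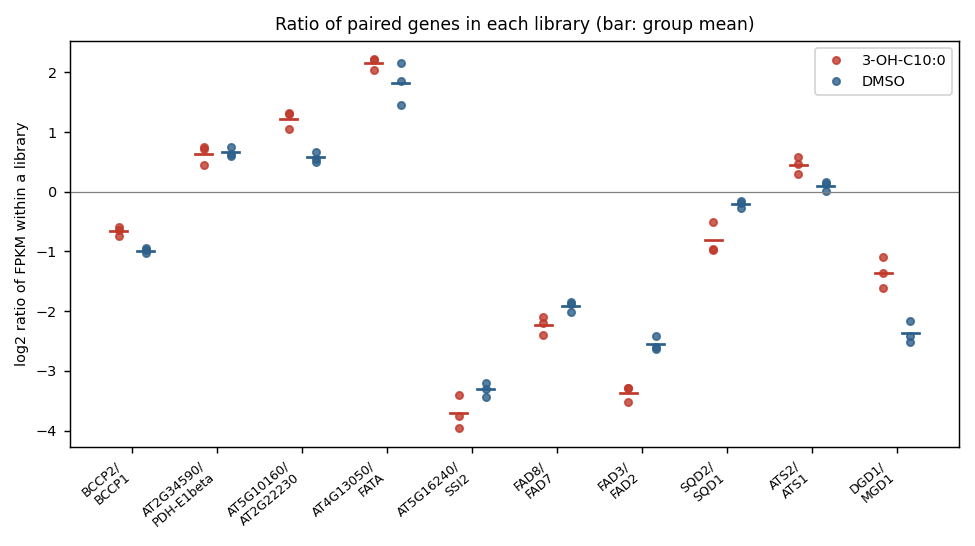
Log2 ratio of FPKM of 10 gene pairs within each library, with 3-OH-C10:0 libraries (red) left of DMSO libraries (blue) and a bar at each group mean (n = 3). The points are well apart for DGD1/MGD1 and FAD3/FAD2 and mixed for AT2G34590/PDH-E1beta.

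Genes that feed or steer fatty acid synthesis were read from further lists chosen by function. The counts of each list stand against 35.6% of all tested genes risen and 35.8% fallen. Of 12 genes of plastid carbon supply and cofactors, 10 fell and 2 rose. The fall of HCS1 was small (-0.23 ± 0.0916, adjusted p = 0.043). Its call was lost when any library other than DMSO replicate 1 was left out (adjusted p = 0.07 to 0.16). It was also lost with the DESeq2 Wald test (0.14), with DESeq2 size factors (0.064) and without a filter on low counts (0.061). CUE1, the phosphoenolpyruvate translocator of the plastid envelope, averaged 234 ± 13.0 FPKM in 3-OH-C10:0 seedlings and 57.8 ± 8.34 FPKM in DMSO seedlings (SD, n = 3 each; log2 fold change 2.11 ± 0.115, adjusted p = 6.0e-08). ENO1, the plastid enolase that makes phosphoenolpyruvate, averaged 38.4 ± 1.34 FPKM in 3-OH-C10:0 seedlings and 14.6 ± 2.85 FPKM in DMSO seedlings (1.48 ± 0.116, adjusted p = 1.0e-06). Further parts of the pyruvate dehydrogenase complex fell like the listed subunits: EMB3003, a second acetyltransferase, by 1.15, and AT4G16155, annotated as a dihydrolipoamide dehydrogenase, by 1.32. Of 12 partners and regulators 11 were tested, of which 8 fell, 3 did not pass and none rose. They include AT1G52670, AT3G15690 and AT3G56130, annotated as biotin/lipoyl attachment domain proteins, which fell by 1.11, 1 and 0.77, and AT1G42960, a chloroplast inner membrane protein, which fell by 0.79. WRI1, a transcription factor that activates fatty acid synthesis genes, is named although the rule did not take it. It was at 3.38 ± 0.452 FPKM in 3-OH-C10:0 seedlings and 5.81 ± 0.414 FPKM in DMSO seedlings (-0.68 ± 0.141, adjusted p = 0.0013). WRI3 (-0.47 ± 0.202, adjusted p = 0.058) and WRI4 (-0.27 ± 0.190, adjusted p = 0.24), of the same list, did not pass. WRI4 was more abundant than WRI1, at 27.2 ± 4.26 FPKM in 3-OH-C10:0 seedlings and 34.7 ± 7.83 FPKM in DMSO seedlings, and its groups overlapped.

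Lists further down the pathway were more mixed. Of 13 genes of plastid lipid transport and other plastid glycerolipid steps, 9 fell, 2 rose and 2 did not pass. UGP3, which makes UDP-glucose for sulfolipid in the plastid, fell by 1.62 ± 0.130, and CDS5, a plastid CDP-diacylglycerol synthase, by 0.79. The plastid phosphatidate phosphatases LPPgamma and LPPepsilon1 rose by 0.94 ± 0.102 and 0.91 ± 0.108. LPPepsilon2, of the same list, went the other way and fell by 0.41 ± 0.120 (adjusted p = 0.0094). Of 8 other acyl desaturases 7 were tested, of which 3 fell, 1 rose and 3 did not pass. The stearoyl-ACP desaturase family members AT3G02620 and AT3G02630 and the acyl desaturase ADS1 fell by 1.62, 0.54 and 0.95, and the family member AT5G16230 rose by 0.67. The call of ADS1 was lost without 3-OH-C10:0 replicate 1 or 3 or DMSO replicate 2 or 3 (adjusted p = 0.059 to 0.12).

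Of 12 lipid and marker genes of phosphate limitation 9 were tested, of which 4 rose, 1 fell and 4 did not pass. DGD2, the digalactolipid synthase used under phosphate limitation, averaged 22.0 ± 1.73 FPKM in 3-OH-C10:0 seedlings and 7.87 ± 0.285 FPKM in DMSO seedlings (1.56 ± 0.0858, adjusted p = 6.3e-08). It was above DGD1 in 3-OH-C10:0 seedlings (7.98 ± 0.883 FPKM) and below it in DMSO seedlings (9.40 ± 0.979 FPKM). MGD2, its monogalactolipid partner, was low and fell by 1.46 ± 0.355. It was at 0.60, 0.68 and 0.86 FPKM in 3-OH-C10:0 seedlings, against 3.36, 1.67 and 1.34 FPKM in DMSO seedlings. DMSO replicate 1 was thus well above the other DMSO libraries for MGD2. The phosphate transporter PHT1;4 and the phospholipase PLDzeta2 rose by 2.42 and 1.04.

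Of 21 genes for acyl-CoA and phospholipid enzymes outside the plastid, 10 rose, 7 fell and 4 did not pass, so the list went both ways. Over all tested genes 35.6% rose and 35.8% fell. The largest rises were in the acyl-CoA synthetases LACS7 (2.69 ± 0.0978), LACS4 (2.01 ± 0.108) and LACS6 (1.90 ± 0.0870). LACS6 and LACS7 are the peroxisomal enzymes that activate fatty acids for beta-oxidation. LACS7 averaged 53.5 ± 6.25 FPKM in 3-OH-C10:0 seedlings and 8.79 ± 0.113 FPKM in DMSO seedlings (SD, n = 3 each). LPCAT1, which exchanges acyl chains on phosphatidylcholine, rose by 1.22, whereas LPCAT2, of the same list, fell by 0.64 ± 0.0998 (adjusted p = 0.00018). Among the 7 genes that fell, the acyl-CoA synthetase LACS2 fell by 1.12 and PMT1, which was low, by 1.38. LACS1, also among the 7, fell by only 0.26 ± 0.0964 (adjusted p = 0.034), and its groups overlapped in CPM. Its call was lost without 3-OH-C10:0 replicate 1 or 2 or DMSO replicate 1 or 3 (adjusted p = 0.088 to 0.15). It was also lost with the DESeq2 Wald test (0.067) and with DESeq2 size factors (0.05). Of 5 listed lipases 4 were tested, of which 3 rose and 1 did not pass. AT3G62590, annotated as a class 3 lipase, had the clearest change of these (2.53 ± 0.144, adjusted p = 8.8e-08), and AT1G02660 and AT4G13550 rose by 1.10 and 0.51 with adjusted p-values of 0.046 and 0.026. The call of AT1G02660 was lost without 3-OH-C10:0 replicate 3 or DMSO replicate 1 or 2 (adjusted p = 0.11 to 0.12), and that of AT4G13550 without 3-OH-C10:0 replicate 1 or 2 or DMSO replicate 1 (0.072 to 0.092). The groups of AT4G13550 overlapped in FPKM and in CPM, and its call was also lost with limma on log2 FPKM (adjusted p = 0.062 to 0.079). That of AT1G02660 was also lost in edgeR without a filter on low counts (adjusted p = 0.083). When libraries were scaled by total counts, AT3G62590 was the only lipase that still passed.

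**Figure D5:**
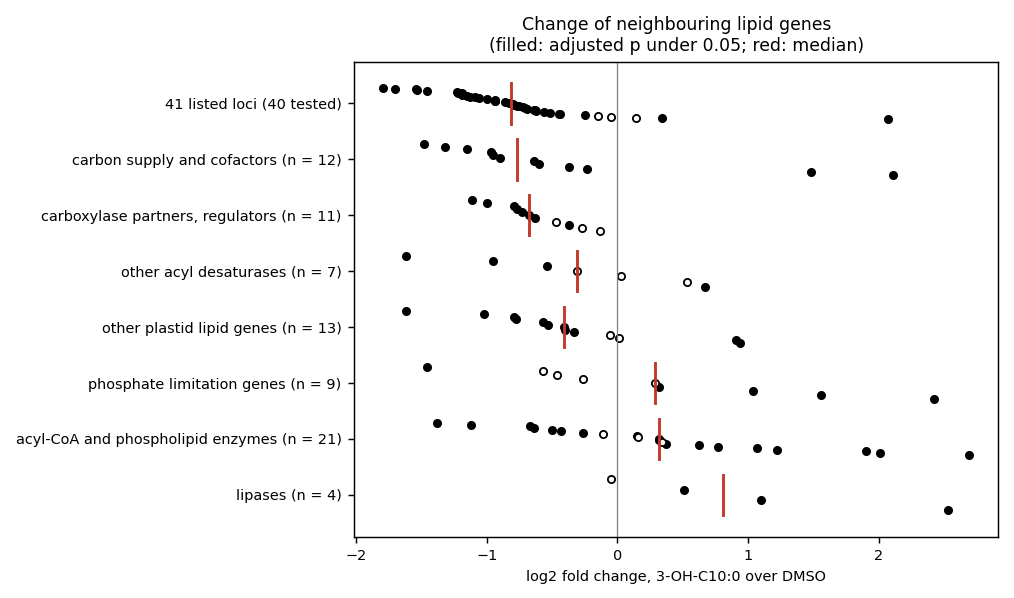
Log2 fold change (3-OH-C10:0 over DMSO) of each tested gene in the 41 listed loci (top row) and in 7 lists of neighbouring lipid genes, filled where the adjusted p was under 0.05, with a red line at each median. The medians of the top 3 rows lie between -0.82 and -0.68, and those of the lowest 3 rows lie above 0.

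Promoter letters were searched for because most of the loci moved together. The window ran from 250 bases before to 50 after the annotated RefSeq start on TAIR10.1, on both strands. The AW-box, CNTNGNNNNNNNCG, the motif bound by WRI1, was found in 7 of the 41 windows (17.1%), against 11.6% of the windows of 19436 tested genes. The matches, in capitals, are shown with up to 8 bases on either side, along the gene's own strand.
PDH-E1alpha, chr1:49365-49394, minus strand: gaaaaaaaCATTGGTGTTAACGaagaaggg
PDH-E1beta, chr1:10586662-10586691, minus strand: catgagttCGATGAAAACAATGtaaacatg
CAC3, chr2:15917026-15917055, plus strand: aggagtcaCGTGGGCACGTGCGagagagca
AT2G22230, chr2:9449955-9449979, plus strand: acacaaacCTTTGTACTCTCCGctc
ACP1, chr3:1392928-1392957, minus strand: ttcacgctCTTTGTACACTCCGccctctct
ACP5, chr5:9571139-9571168, plus strand: ttcacgctCCTTGAACAATCCGccatctct
LACS9, chr1:29152522-29152551, minus strand: aataagagCGTTTTGTGCAATGagaattgg
The matches of PDH-E1beta and LACS9 lie on the opposite strand and read as the reverse complement, and that of CAC3 overlaps G-box matches. The W-box, TTGACC or TTGACT, was found in 14 windows (34.1%, against 33.2% of tested genes), and the G-box, CACGTG, in 4 (9.76%, against 8.73%). AT3G57280 and FAD8, the loci with the largest rise and fall, both hold W-box matches and no AW-box match. These shares lie near those of all tested genes, and a match shows only that the letters are present.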

How the data were processed

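Estimated counts and FPKM per locus came from 6 libraries (3 per group, grouped by the labels). The expected counts were deposited without normalisation and the FPKM were scaled to depth by the authors, per the file headers. The submitters' processing notes name RSEM, StringTie 1.3.1, HISAT2 2.2.4, Bowtie2 2.2.8 and fastp 0.18.0, with build TAIR10. Their order, the read length and any use of strand were not given in the sources used here. Of the deposited counts 3.618% were not whole, and all were rounded here. Genes were kept by filterByExpr (minimum count 10), scaled by TMM and tested, two-sided and without a block, with edgeR 4.0.16 (robust quasi-likelihood F test, R 4.3.3, adjusted p threshold 0.05). The steps were tested on simulated counts in which far fewer genes changed than in these data, so that test does not cover a change this broad. The common biological coefficient of variation was 11.3%. Sums, shares and ratios used FPKM with exact permutation tests. Alternatives were DESeq2 1.42.0, limma 3.58.1 on log2(FPKM + 0.1) or log2(FPKM + 1), other scaling and filters, a replicate block and leaving out each library.

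The loci and lists were chosen with earlier results of these data known. Values per library are given for loci that changed at least 2-fold, for pairs whose log2 ratio differed by at least 1 and for the most abundant locus of each role. From other lists up to 4 genes with the smallest p are named; others, such as exceptions, were picked with their values in view. The sum of ACP2 and ACP3 was added after seeing the data, and the sums of FAD4 to FAD8 and of FAD2 with FAD3 were not planned beforehand either. Coordinates and sequences are RefSeq's on TAIR10.1, matched by locus code, since the files carry no coordinates. All 41 loci were matched.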

Additional observations from a re-analysis of the deposited data

How the results depend on the processing

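Over all alternatives 34 to 36 of the listed loci fell and 2 rose, and FAD2 was the only listed locus to change its call. The count of 36 came from limma without a filter, where ACP5 was tested as well. The median log2 fold change of the listed loci was -0.90 with total-count scaling, which also moved the median of all genes to -0.12, and -0.86 to -0.79 when single libraries were left out. Over all tested genes, 6410 to 7227 genes rose and 6481 to 7954 fell. In the phosphate limitation list 2 genes fell with limma on log2(FPKM + 0.1) and with the replicate block, and 1 to 2 when single libraries were left out. With total-count scaling 1 lipase rose, and 1 to 3 did when single libraries were left out. The summed thioesterases reversed to a log2 ratio of 0.0997 in TMM-scaled CPM. The ratio of AT2G34590 to PDH-E1beta ranged from -0.0863 to 0.0628 when single libraries were left out, and it reversed to 0.0628 without 3-OH-C10:0 replicate 2 and to 0.015 without DMSO replicate 2. In these 3 cases the cause was not tested. ACP2 and ACP3 summed differed in share by 15.5 percentage points, against 14.1 for ACP3 alone.

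Deviations of same-numbered libraries from their group means correlated at 0.0262, -0.0158 and 0.0996, and only replicate 3 correlated best with its own number. With 3 libraries per group, this check cannot decide whether same-numbered libraries share a batch. With the replicate block 7063 genes rose and 7088 fell, 34 of the listed loci among the latter. Depth limits ACP5, which had at most 2 counts in a library.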
